A study of Mus musculus with 8 samples.

Results

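Glycosaminoglycan synthesis genes were examined in dermal fibroblasts of old mice and young mice. The set was chosen by name and holds 39 enzymes that build, epimerise or sulfate glycosaminoglycan chains, or supply their precursors. A gene was measured where the array had a probe set annotated to that symbol alone, and where it had several, the one with the highest average signal stood for the gene. By this rule 34 of the 39 genes were measured, among 17097 genes in all. The 5 others (Xylt1, Fam20b, Chsy3, Ndst1 and Hs3st1) were not analysed here, and the 3 probe sets annotated to Fam20b also carry a second symbol.

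The old group was 4 mice aged 18 months and the young group 4 mice aged 2 months, each animal on its own Affymetrix array. The labels name no treatment or engineered allele, and strain and sex are not given in the sources used here. Each day 1 old and 1 young animal were taken, and which animals had a day in common is not stated. Both groups were sorted alike from collagenase-digested skin without subdermis, as cells that carry Pdgfra and CD34 and lack CD45, CD117, CD24, CD31 and EpCam. The RNA was amplified for 18 cycles before labelling. All levels below are RMA-normalised log2 values, so a difference of 1 is a doubling, and differences are old minus young. Fewer cells of a type and less RNA per cell cannot be told apart in such bulk samples.

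A glycosaminoglycan chain starts on a serine of a core protein with a short linker of xylose, galactose, galactose and glucuronic acid, which chondroitin, dermatan and heparan sulfate have in common. The next sugar decides the kind of chain: N-acetylgalactosamine starts chondroitin sulfate, which epimerases turn into dermatan sulfate, and N-acetylglucosamine starts heparan sulfate. Sulfotransferases then decorate the chain in the Golgi with sulfate taken from the donor PAPS. In the dermis, dermatan sulfate on decorin and biglycan spaces collagen fibrils, while heparan sulfate on syndecans, glypicans and perlecan binds growth factors. In humans, inherited loss of B4GALT7, B3GALT6, CHST14 or DSE causes forms of Ehlers-Danlos syndrome, a disorder of fragile skin and lax joints.

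Linker enzymes, both chondroitin polymerising factors, Chst12, Sulf2 and both PAPS synthases were lower in old fibroblasts, while Chsy1, Hs6st1 and Ugdh were higher. Of these 13 calls, 8 held in every alternative processing except a covariate for non-specific background, with which only Chpf passed. The calls of Sulf2, Hs6st1, B3galt6, B3gat3 and Chsy1 were also lost in other alternatives. In counts, 10 of the 34 measured members fell and 3 rose, by limma with an adjusted p under 0.05, and 21 did not pass. Over all genes tested 7.66% fell and 9.87% rose. The linker enzymes fell in 4 of 4 measured members, the chondroitin and dermatan enzymes in 3 of 14 with 1 rising, and the heparan sulfate enzymes in 0 of 11 with 1 rising. At an unadjusted p under 0.05, 2 of the 11 heparan sulfate enzymes were lower and 3 higher. Both enzymes that make PAPS fell, while Ugdh, which makes UDP-glucuronic acid, rose. Median differences were -0.43 for the linker, -0.02 for chondroitin and dermatan sulfate, -0.02 for heparan sulfate and 0.01 for all genes. All old values lay below all young values for 9 of the 34 members (9.66% of all genes) and above them for 3 (11.7% of all genes). After a further quantile normalization 11 members fell and 1 rose, and over all genes 1716 fell and 1415 rose, against 1310 and 1688 without it.

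**Figure D1:**
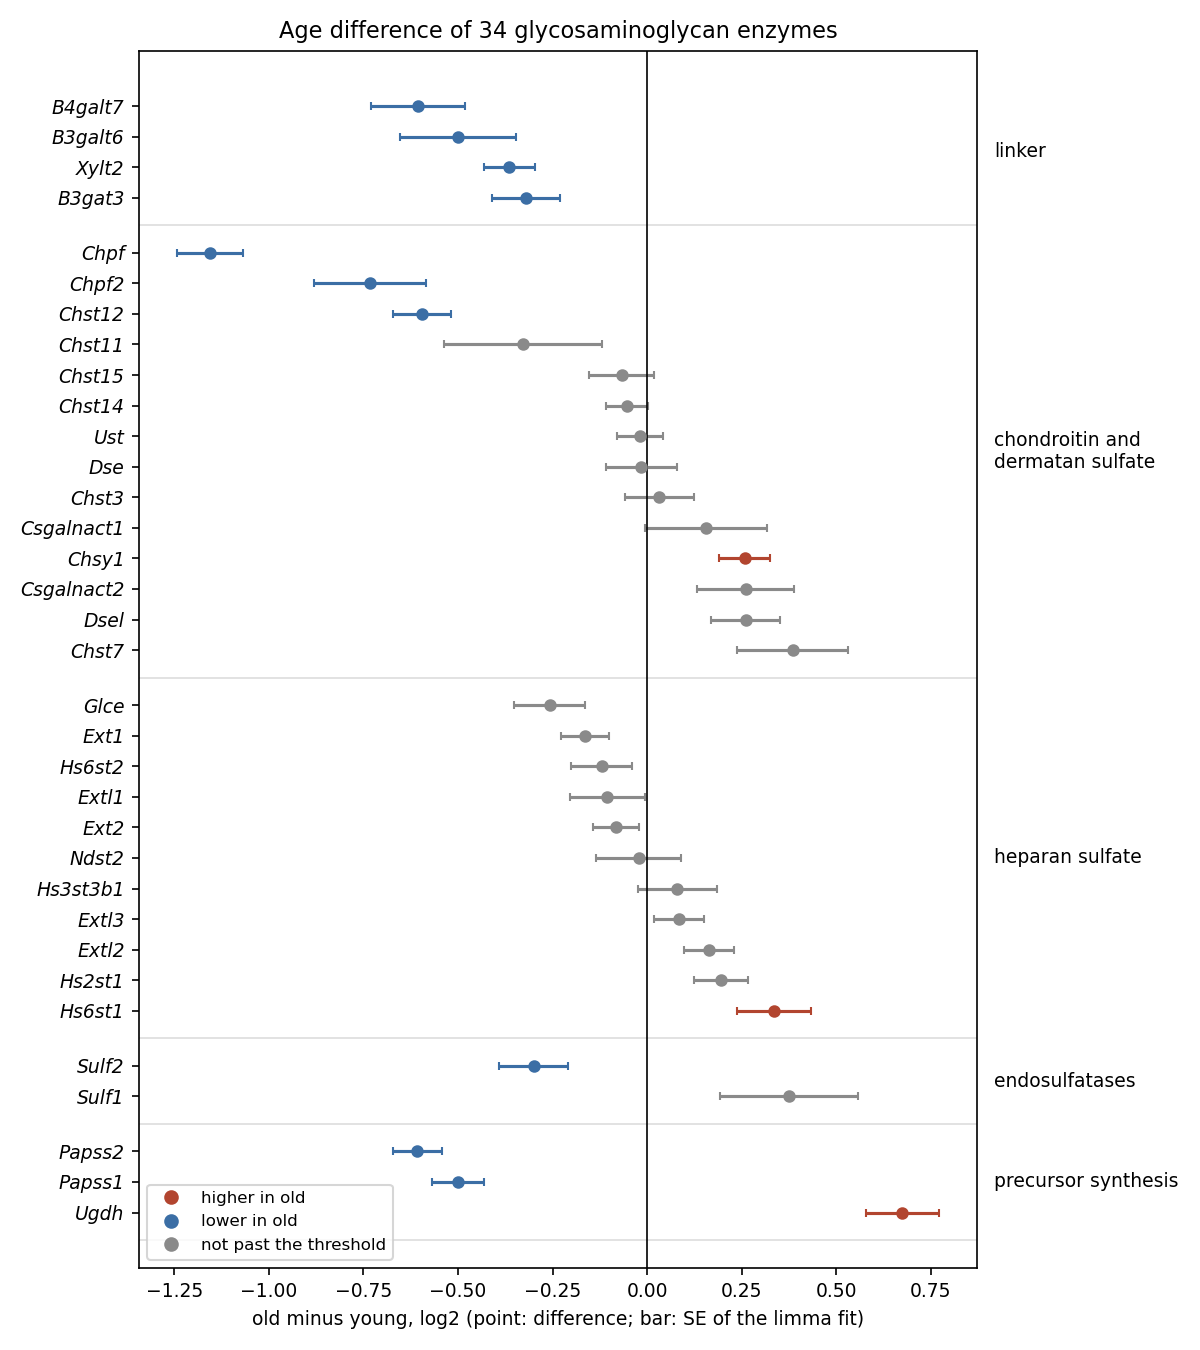
Age difference of each of the 34 measured enzymes (x axis, old minus young on the log2 scale; bars, SE of the limma fit with 4 old and 4 young arrays), grouped by step. The linker genes and the PAPS synthases lie to the left of 0, Chpf is the farthest left at -1.16, and Ugdh the farthest right at 0.68.

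Transcripts of the 4 measured linker enzymes were lower in old fibroblasts, with differences from -0.61 to -0.32, and the calls of B3galt6 and B3gat3 each held in 8 of 17 alternatives. Xylt2, a xylosyltransferase that attaches the first sugar to the core protein, had 5.97, 6.19, 6.16 and 6.00 in old replicates 1 to 4, against 6.44, 6.46, 6.47 and 6.41 in young replicates 1 to 4. The 4 old arrays were all lower than the young arrays, which lay within a narrow range. Xylt2 fell by 0.37 ± 0.07 (SE, adjusted p = 0.00508). B4galt7 adds the first galactose, and measured 8.54, 8.25, 8.55 and 7.95 in old arrays against 8.99, 8.86, 8.94 and 8.92 in young arrays. The groups did not overlap, and old replicate 4 was lowest. B4galt7 fell by 0.61 ± 0.12 (SE, adjusted p = 0.00841), and its other probe set, not used for the gene value, fell by 0.62 (adjusted p = 0.00168 over all probe sets).

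The second galactose is added by B3galt6, which measured 6.40, 6.34, 6.34 and 6.44 in old arrays, against 6.37, 7.24, 6.97 and 6.94 in young arrays. Young replicate 1 lay within the old range, so the groups overlapped. B3galt6 fell by 0.50 ± 0.15 (SE, adjusted p = 0.0484). B3gat3 closes the linker with glucuronic acid, and measured 8.49, 8.76, 8.70 and 8.59 in old arrays against 8.76, 8.94, 9.02 and 9.10 in young arrays. The highest old value equalled the lowest young value. B3gat3 fell by 0.32 ± 0.09 (SE, adjusted p = 0.0341). The other probe sets of B3galt6 (-0.27 and -0.16) and of B3gat3 (-0.06) did not pass over all probe sets (adjusted p = 0.177, 0.222 and 0.866). Over all probe sets that of B3galt6 used here had an adjusted p of 0.0611. The calls of Xylt2 and B4galt7 were kept when any array was left out, whereas that of B3galt6 was lost without any array other than young replicate 1 (adjusted p up to 0.116) and that of B3gat3 without any other than old replicate 2 and young replicate 1 (adjusted p up to 0.0923). Without 1 array, 2 to 4 of the linker genes were called.

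Because the 4 linker genes fell together, their promoter windows are shown for comparison (RefSeq, GRCm38.p6, 250 bases before to 50 after the annotated start, 5′ to 3′ on the gene's strand). Capitals mark 3 motifs on either strand: the GC box GGGCGG, bound by Sp factors, the core CCACG, and the cAMP response element TGACGTCA. The windows are chr11:94677444-94677743 (minus strand) for Xylt2, chr13:55599646-55599945 (plus strand) for B4galt7, chr4:155992629-155992928 (minus strand) for B3galt6 and chr19:8920143-8920442 (plus strand) for B3gat3.
Xylt2: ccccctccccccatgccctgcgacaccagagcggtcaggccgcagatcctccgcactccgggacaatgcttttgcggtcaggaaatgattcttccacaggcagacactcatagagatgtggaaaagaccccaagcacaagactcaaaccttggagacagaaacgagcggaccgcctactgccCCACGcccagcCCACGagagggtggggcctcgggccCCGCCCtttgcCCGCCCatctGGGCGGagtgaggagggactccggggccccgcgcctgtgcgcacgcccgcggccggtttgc
B4galt7: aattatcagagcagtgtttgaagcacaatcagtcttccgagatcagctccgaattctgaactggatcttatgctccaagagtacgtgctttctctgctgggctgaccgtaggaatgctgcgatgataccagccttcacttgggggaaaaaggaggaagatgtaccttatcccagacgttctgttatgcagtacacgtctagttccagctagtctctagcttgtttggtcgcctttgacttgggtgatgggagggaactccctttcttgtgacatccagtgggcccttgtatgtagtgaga
B3galt6: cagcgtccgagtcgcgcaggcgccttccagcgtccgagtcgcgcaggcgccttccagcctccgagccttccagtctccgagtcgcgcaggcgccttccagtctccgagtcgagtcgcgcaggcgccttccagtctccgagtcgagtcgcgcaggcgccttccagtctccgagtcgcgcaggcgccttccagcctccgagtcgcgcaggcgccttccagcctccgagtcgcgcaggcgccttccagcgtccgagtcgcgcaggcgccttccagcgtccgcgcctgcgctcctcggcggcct
B3gat3: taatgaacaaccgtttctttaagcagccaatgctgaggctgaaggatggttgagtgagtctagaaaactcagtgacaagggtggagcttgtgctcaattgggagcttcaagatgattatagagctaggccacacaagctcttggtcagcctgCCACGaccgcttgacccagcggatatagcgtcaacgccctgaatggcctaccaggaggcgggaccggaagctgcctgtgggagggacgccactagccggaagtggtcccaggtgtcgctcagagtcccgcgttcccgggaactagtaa
Xylt2 had 3 GC boxes and 2 CCACG cores, B3gat3 had 1 CCACG core, and B4galt7 and B3galt6 had neither. B3galt6 has a short G- and C-rich unit repeated through most of its window. Over all 32851 promoter windows of this length 35.7% held a GC box and 32.8% a CCACG core. Of the 34 measured members 30 had a window, 38 windows in all, of which 65.8% held a GC box and 55.3% a CCACG core. The median G and C content was 65.7% in the members' windows and 52.7% in all windows. The unfolded protein response element TGACGTGG, which contains the CCACG core on its other strand, was found in no member's window (0.676% of all windows). The AP-1 motif TGANTCA was in 2.63% of members' windows (7.81% of all) and the E-box CACGTG, which can overlap CCACG, in 10.5% (7.15% of all).

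Chondroitin chain building split by gene: both polymerising factors fell in old fibroblasts and the synthase Chsy1 rose. Chpf, a partner that chondroitin synthases need to lengthen the chain, had 8.72, 8.32, 8.51 and 8.58 in old arrays, against 9.67, 9.59, 9.73 and 9.76 in young arrays. No old array came near a young one. The difference of -1.16 ± 0.09 (SE, 2.23-fold lower, adjusted p = 4.0e-05) was the largest among the 34 members. Chpf2, its relative, measured 6.35, 6.87, 7.16 and 6.78 in old arrays and 7.45, 7.38, 7.60 and 7.66 in young arrays. The groups did not overlap, and the old arrays were spread more widely (SD 0.34 in old, 0.13 in young, n = 4 each). Chpf2 fell by 0.73 ± 0.15 (SE, adjusted p = 0.00819). Chsy1, which adds both sugars of the chondroitin repeat, measured 9.45, 9.29, 9.32 and 9.42 in old arrays and 9.22, 9.10, 9.02 and 9.11 in young arrays. Its old values all lay above the young values, by a small margin. Chsy1 rose by 0.26 ± 0.07 (SE, adjusted p = 0.0257), a call lost without old replicates 1 or 4 or young replicates 2, 3 or 4 (adjusted p up to 0.0763) and after quantile normalization (0.19, adjusted p = 0.0629) or median centring (0.23, adjusted p = 0.0535). The enzymes that begin the chondroitin chain, Csgalnact1 (0.16 ± 0.16, adjusted p = 0.583) and Csgalnact2 (0.26 ± 0.13, adjusted p = 0.209; SE), did not pass.

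The sulfation enzymes of chondroitin and dermatan sulfate did not pass the test, apart from Chst12. Chst12, which places sulfate on the 4 position of chondroitin's N-acetylgalactosamine, had 8.69, 8.70, 8.70 and 8.48 in old arrays, against 9.38, 9.14, 9.20 and 9.23 in young arrays. The groups were well apart. Chst12 fell by 0.60 ± 0.08 (SE, adjusted p = 7.6e-04). Chst11, which catalyses the same step, measured 8.18, 8.5, 8.52 and 8.34 in old arrays and 7.98, 9.03, 8.84 and 9.0 in young arrays. Here young replicate 1 was the lowest of all 8 arrays and the other young arrays were the 3 highest. The difference of -0.33 ± 0.21 (SE) did not pass (adjusted p = 0.338), and without young replicate 1 it was -0.57 (adjusted p = 0.00523). The dermatan 4-sulfotransferase Chst14 differed by -0.05 ± 0.06 (SE, adjusted p = 0.59) with a mean of 9.36 in old and 9.41 in young arrays. The epimerase Dse, which opens the way to dermatan sulfate, differed by -0.02 ± 0.09 (SE, adjusted p = 0.94), and its relative Dsel by 0.26 ± 0.09 (SE, adjusted p = 0.0845, or 0.33 and 0.0353 without old replicate 2). The 6-sulfotransferase Chst7 had a difference of 0.39 ± 0.15 (SE, adjusted p = 0.106). Chst3, Chst15 and Ust, which act on the 6 position, on already 4-sulfated units and on the uronic acid, were dim (at the 13.1, 36.4 and 30.4 percentiles of gene means) and differed by 0.03, -0.07 and -0.02, none past the threshold.

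The Chpf window, chr1:75479422-75479721 (minus strand), and that of Ugdh, chr5:65435793-65436092 (minus strand), are shown because these genes had the largest fall and the largest rise among the members. Capitals mark the same 3 motifs.
Chpf: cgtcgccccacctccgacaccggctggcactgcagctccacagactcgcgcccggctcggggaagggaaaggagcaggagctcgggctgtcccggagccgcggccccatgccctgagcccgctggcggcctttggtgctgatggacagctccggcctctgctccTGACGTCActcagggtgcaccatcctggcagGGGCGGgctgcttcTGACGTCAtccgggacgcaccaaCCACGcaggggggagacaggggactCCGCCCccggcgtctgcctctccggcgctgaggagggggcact
Ugdh: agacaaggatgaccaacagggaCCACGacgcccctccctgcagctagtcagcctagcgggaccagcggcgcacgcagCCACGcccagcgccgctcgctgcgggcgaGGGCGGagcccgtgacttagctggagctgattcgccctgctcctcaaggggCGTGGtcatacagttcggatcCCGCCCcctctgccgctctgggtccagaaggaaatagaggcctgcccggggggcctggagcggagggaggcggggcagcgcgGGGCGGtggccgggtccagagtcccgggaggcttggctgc
Both windows hold GC boxes, 2 in Chpf and 3 in Ugdh, and CCACG cores, 1 in Chpf and 3 in Ugdh. Chpf also has the palindrome TGACGTCA at 2 places, and no other member's window has it. That motif was added after the sequence had been read, and 1.79% of all windows hold it. A match is a string of letters and was not tested for binding.

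**Figure D2:**
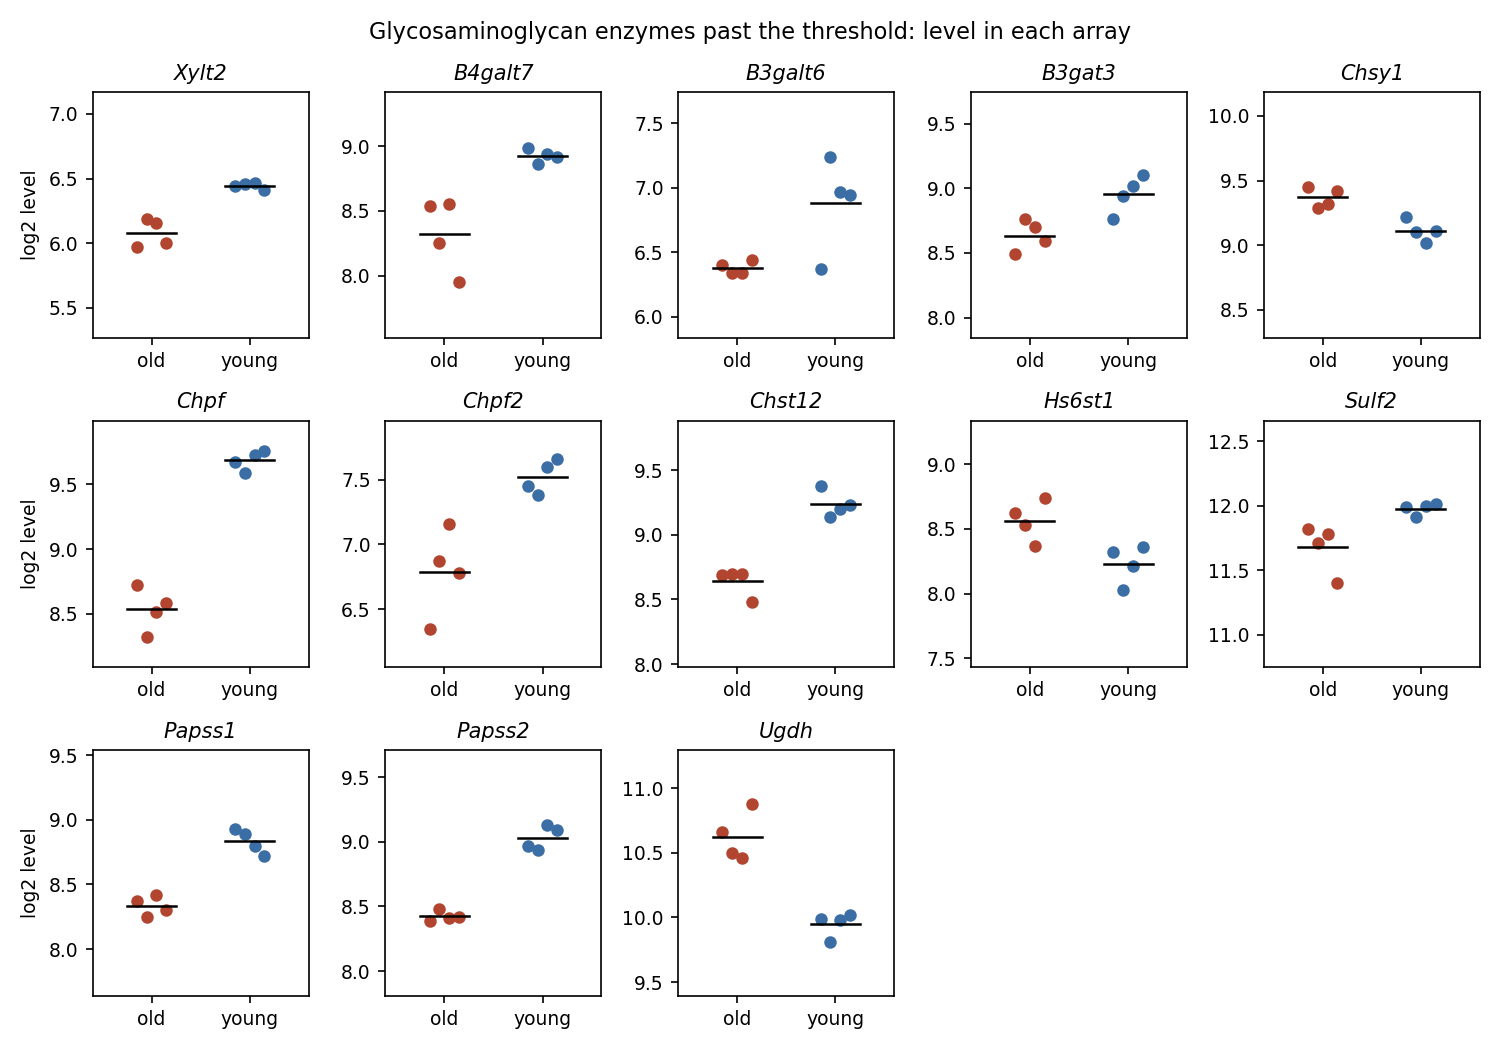
Log2 level of the 13 enzymes past the threshold in each of the 4 old and 4 young arrays (points; y axis, log2 level, all panels spanning the same number of log2 units; line, group mean). Chpf, Chst12, both Papss genes and Ugdh separate the ages widely, while B3galt6 and B3gat3 overlap, young replicate 1 being the lowest young array in both.

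The heparan sulfate enzymes did not pass the test, Hs6st1 being the exception. Hs6st1, which sulfates the 6 position of glucosamine, had 8.62, 8.53, 8.37 and 8.74 in old arrays, against 8.32, 8.03, 8.21 and 8.36 in young arrays. The groups did not overlap but nearly touched. Hs6st1 rose by 0.34 ± 0.10 (SE, adjusted p = 0.0411), a call that only leaving out old replicate 3 or young replicate 4, of the 8 arrays, did not end (adjusted p up to 0.102). The call was also lost after quantile normalization (0.28, adjusted p = 0.0592) and with array weights (0.26, adjusted p = 0.081). Its relative Hs6st2 was dim, with 4.59, 4.34, 4.43 and 4.47 in old arrays and 4.62, 4.72, 4.54 and 4.43 in young arrays. The groups overlapped, and the difference of -0.12 ± 0.08 (SE) did not pass (adjusted p = 0.365).

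The polymerase pair Ext1 and Ext2 differed by -0.17 ± 0.06 (SE, adjusted p = 0.106) and -0.08 ± 0.06 (SE, adjusted p = 0.409). All 4 old values of Ext1, from 9.31 to 9.43, lay below the young values, from 9.49 to 9.65. The related Extl2 (0.16), Extl3 (0.09) and Extl1 (-0.11) did not pass (adjusted p = 0.128, 0.44 and 0.535). Extl2 passed with the mean over its probe sets (0.21, adjusted p = 0.0317). Glce, the epimerase that turns glucuronic into iduronic acid in heparan sulfate, differed by -0.26 ± 0.09 (SE, adjusted p = 0.0896) and was past the threshold after quantile normalization (-0.33, adjusted p = 0.0191) and with array weights (-0.36, adjusted p = 0.012). Ext1 passed after quantile normalization too (-0.22, adjusted p = 0.0261). Hs2st1, which sulfates the iduronic acid, differed by 0.20 ± 0.07 (SE, adjusted p = 0.0887). It passed with array weights (0.20, adjusted p = 0.0469) and without young replicate 1 (0.24, adjusted p = 0.0472). The N-sulfotransferase Ndst2 (-0.02) and the 3-O-sulfotransferase Hs3st3b1 (0.08) did not pass (adjusted p = 0.924 and 0.672).

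The extracellular endosulfatases, which trim sulfate from the 6 position of finished heparan sulfate, differed between probe sets and arrays. Sulf2 had 11.82, 11.71, 11.78 and 11.40 in old arrays, against 11.99, 11.91, 12.00 and 12.01 in young arrays. Old replicate 4 was lowest, and the groups did not overlap. Sulf2 fell by 0.30 ± 0.09 (SE, adjusted p = 0.0489), at a level above that of 99.2% of genes, where array signals may be compressed (not measured here). The second Sulf2 probe set differed the other way, by 0.24 ± 0.08 (SE, adjusted p = 0.0715 over all probe sets), and the mean of both, at -0.03, did not pass. The call was kept without old replicate 1 and lost without any other array (adjusted p up to 0.11). In all, Sulf2 lost its call in 13 of 17 alternatives, among them median centring (adjusted p = 0.0723), quantile normalization (0.0529) and the probe set of highest SD (0.0512). Sulf1 had 10.57, 9.93, 10.07 and 10.09 in old arrays and 10.26, 9.75, 9.75 and 9.40 in young arrays. The groups overlapped because young replicate 1 was high, and the difference of 0.38 ± 0.18 (SE) did not pass (adjusted p = 0.204), but did without young replicate 1 (0.53, adjusted p = 0.0489).

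Transcripts of both PAPS synthases fell in old fibroblasts and that of Ugdh rose. Papss1 and Papss2 each make PAPS, the sulfate donor of every sulfotransferase named above. Papss1 had 8.37, 8.25, 8.42 and 8.30 in old arrays, against 8.93, 8.89, 8.80 and 8.72 in young arrays. Papss2 had 8.39, 8.48, 8.41 and 8.42 in old arrays, against 8.97, 8.94, 9.13 and 9.09 in young arrays. Neither gene had overlapping groups, and Papss2 was nearly constant within the old group (SD 0.04). Papss1 fell by 0.50 ± 0.07 (SE, adjusted p = 0.00106) and Papss2 by 0.61 ± 0.06 (SE, adjusted p = 2.5e-04). Among the 3 other probe sets of Papss2, 2 were lower as well (-0.72 and -0.66, adjusted p = 4.5e-04 and 0.00125), and the dimmest differed by -0.18 (adjusted p = 0.219 over all probe sets).

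Ugdh oxidises UDP-glucose to UDP-glucuronic acid, a building block of all these chains and of the unsulfated hyaluronan. It had 10.66, 10.5, 10.46 and 10.88 in old arrays, against 9.99, 9.81, 9.98 and 10.02 in young arrays. Every old array was higher, old replicate 4 the most. Ugdh rose by 0.68 ± 0.10 (SE, 1.6-fold, adjusted p = 0.00135).

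Related enzymes were compared directly in 9 of the 12 listed pairs, by the change of the first gene minus that of the second within each array. In an exact 2-sided permutation test of 4 old against 4 young arrays, for which 0.0286 is the smallest p possible, 3 pairs reached that p, and none passed after adjustment over the 9 pairs (adjusted p = 0.0858 each). Hs6st1 changed by 0.46 ± 0.15 (SE) more than Hs6st2, Dse by 0.28 ± 0.08 (SE) less than Dsel, and Chst3 by 0.35 ± 0.15 (SE) less than Chst7. The old and young arrays did not overlap in any of the 3, which the smallest p requires. Hs6st2 and Chst3 were dim (at the 28 and 13.1 percentiles of gene means). The endosulfatases differed by 0.68 ± 0.23 (SE), Sulf1 minus Sulf2 (exact p = 0.0571, adjusted p = 0.128). Chpf and Chpf2 (-0.42 ± 0.23, SE, exact p = 0.143), Chst11 and Chst12 (0.27 ± 0.31, SE, exact p = 0.6) and Papss1 and Papss2 (0.11 ± 0.10, SE, exact p = 0.286) did not pass. The 2 remaining pairs were Ext1 with Ext2 (exact p = 0.2) and Csgalnact1 with Csgalnact2 (exact p = 0.657).

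Genes around the chain enzymes moved both ways. Over all genes tested 9.87% rose and 7.66% fell, and no list was tested against those shares. Of 19 measured genes of sugar nucleotide and sulfate supply, 3 rose and 3 fell, with a median of -0.05. After quantile normalization or with array weights 3 rose and 5 fell. Gfpt1 and Gfpt2 catalyse the same first step of hexosamine synthesis and changed oppositely. Gfpt2 had 11.31, 11.52, 11.39 and 11.69 in old arrays, against 10.65, 10.79, 11.02 and 10.92 in young arrays, and rose by 0.63 ± 0.10 (SE, adjusted p = 0.00261). Gfpt1 had 8.84, 9.09, 9.04 and 9.22 in old arrays, against 9.62, 9.62, 9.74 and 9.69 in young arrays, and fell by 0.62 ± 0.08 (SE, adjusted p = 8.8e-04). Neither gene had overlapping groups. Uap1, which makes UDP-N-acetylglucosamine, rose by 0.45 ± 0.12 (SE, adjusted p = 0.0234), a call lost without young replicates 1 or 2. The Golgi UDP-galactose carrier Slc35a2 fell by 0.52 ± 0.06 (SE, adjusted p = 5.9e-04).

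Lysosomal breakdown genes were also divided, 3 rising and 3 falling of 13 (9.87% and 7.66% of all genes), with a median of 0.01. Naglu, which removes N-acetylglucosamine from heparan sulfate, had 7.86, 7.88, 7.85 and 7.15 in old arrays, against 8.76, 8.44, 8.77 and 8.71 in young arrays. It fell by 0.99 ± 0.16 (SE, 1.98-fold lower, adjusted p = 0.00254). Ids, the iduronate sulfatase, had 9.82, 9.65, 9.96 and 10.02 in old arrays against 9.26, 8.99, 9.21 and 9.12 in young arrays. It rose by 0.72 ± 0.09 (SE, adjusted p = 8.0e-04). Sumf1, which activates all sulfatases, Sulf1 and Sulf2 among them, rose by 0.55 ± 0.09 (SE, adjusted p = 0.00338), and the beta-galactosidase Glb1 fell by 0.59 ± 0.12 (SE, adjusted p = 0.00665).

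Core proteins that carry the chains changed gene by gene, and the counts below stand beside 9.87% of all genes rising and 7.66% falling. Of 14 measured heparan sulfate core proteins, 3 rose and 3 fell, with a median of 0.03. Agrn, the basement membrane proteoglycan agrin, had 8.65, 8.69, 8.57 and 8.86 in old arrays, against 7.43, 7.48, 7.46 and 7.83 in young arrays. It rose by 1.14 ± 0.10 (SE, 2.21-fold, adjusted p = 9.3e-05). The collagen proteoglycan Col18a1 fell by 0.60 ± 0.07 (SE, adjusted p = 3.7e-04), the syndecan Sdc3 by 0.51 ± 0.08 (SE, adjusted p = 0.00198) and perlecan, Hspg2, by 0.50 ± 0.07 (SE, adjusted p = 0.0016). Of 16 chondroitin and dermatan sulfate core proteins, 2 rose, Col12a1 by 0.77 and Srgn by 0.71, and 1 fell, Col14a1 with a difference of -2.69 (adjusted p = 0.0156, 5.1e-04 and 2.6e-04). The number that fell was 2 without old replicate 1 or with array weights, and 3 with the probe set of highest SD. The dermatan sulfate carriers decorin, Dcn (-0.09 ± 0.07), and biglycan, Bgn (-0.12 ± 0.06; SE), did not pass (adjusted p = 0.393 and 0.205), at levels near the top of the array's range. Of 13 further chain sulfotransferases Hs3st3a1 rose (0.36 ± 0.09, SE, adjusted p = 0.0221), with old values from 4.15 to 4.44 and young values from 3.84 to 4.12, and none fell by limma (1 lower at an unadjusted p under 0.05). Its call was lost without old replicates 2 or 4 or young replicates 2, 3 or 4. The gene is dim and is left out of the test without the dimmest 25% of genes, where 0 of the list rose, and 2 rose without young replicate 1.

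**Figure D3:**
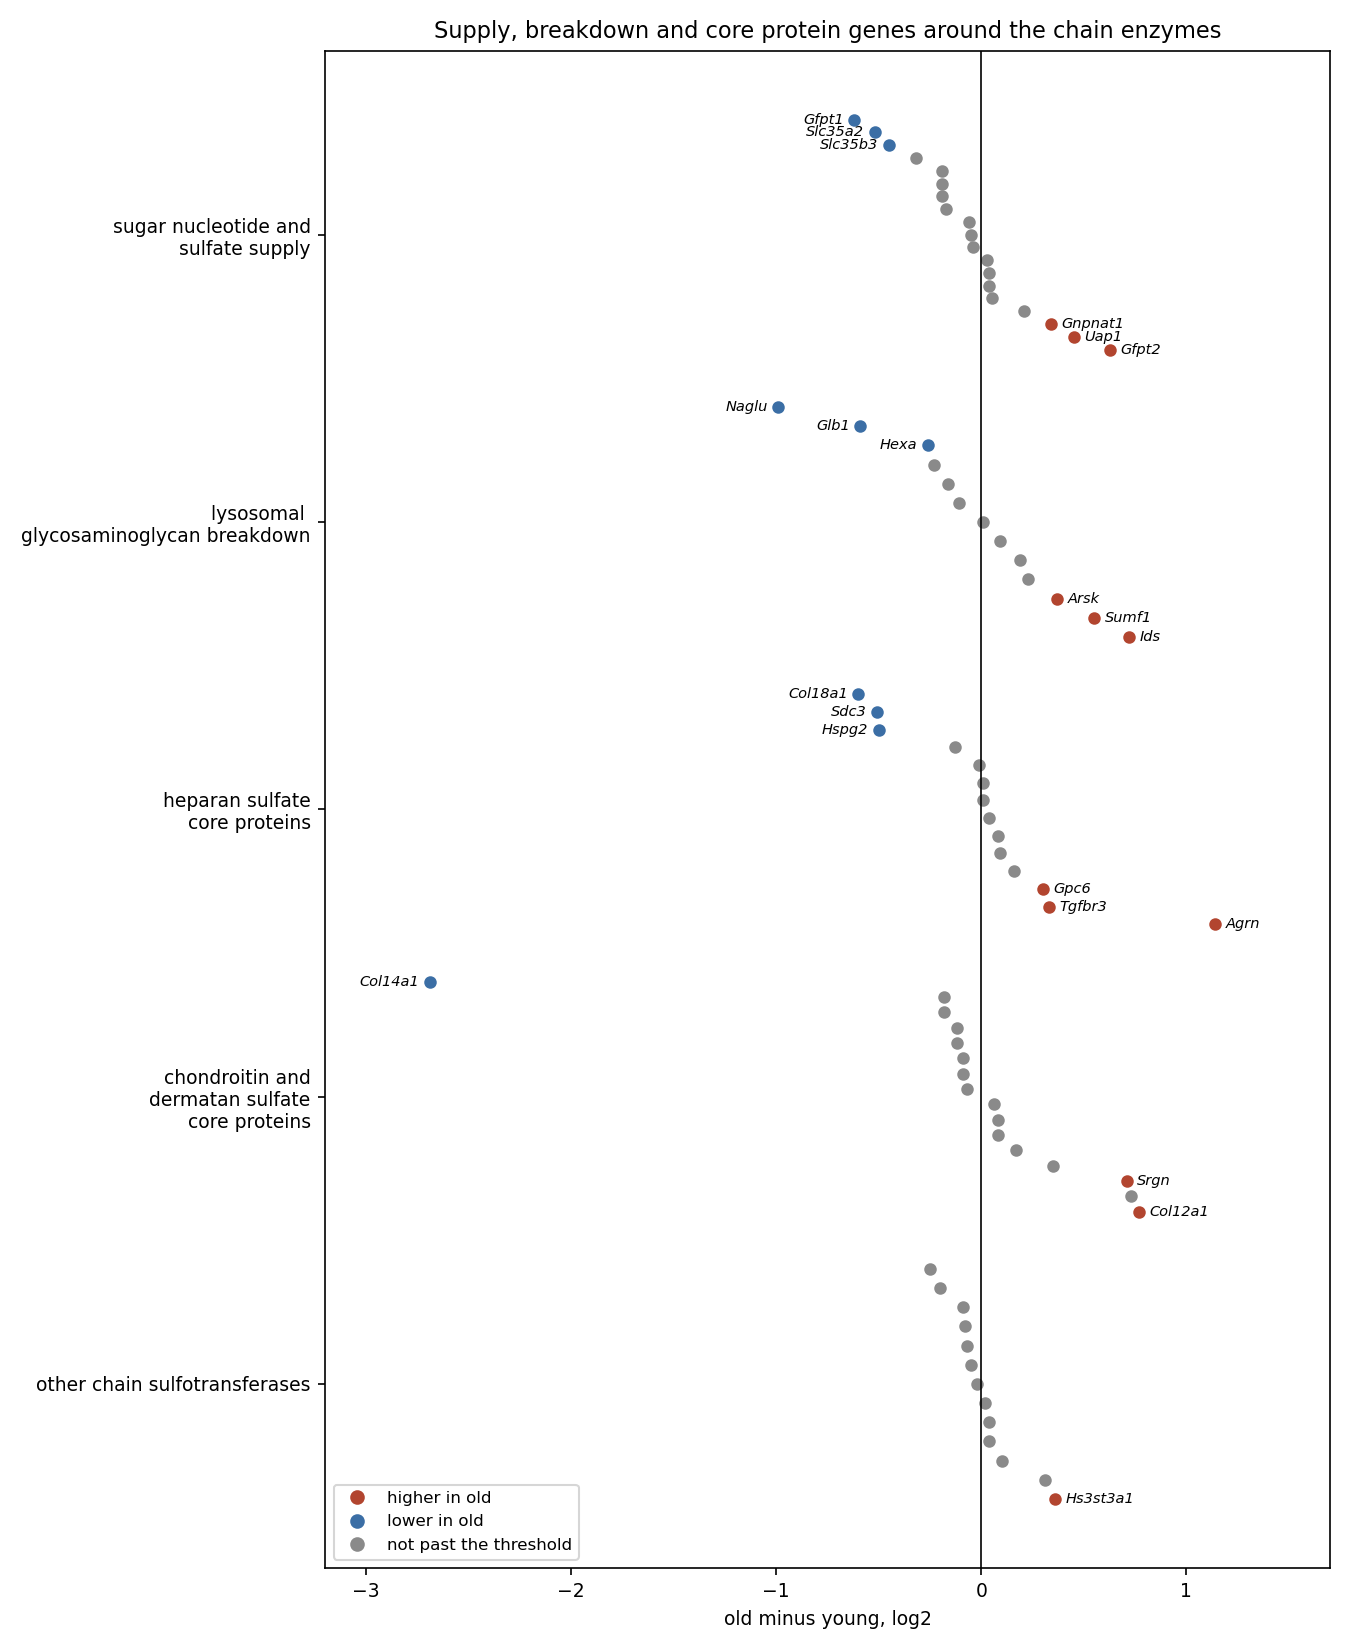
Age difference of the genes that surround chain synthesis (x axis, old minus young on the log2 scale; each point 1 gene, named where it passed the threshold), in 5 lists. Each of the upper 3 lists holds 3 genes that rose and 3 that fell, and Col14a1 at -2.69 lies farthest from 0.

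The sorted cells carried the markers of the gate. The level of Pdgfra was 8.52 ± 0.13 in old and 8.36 ± 0.16 in young arrays, and that of Cd34 was 11.68 ± 0.10 and 11.73 ± 0.07 (SD, n = 4 each). Among the genes the gate excludes, Ptprc averaged 3.88 in old and 3.71 in young arrays, Kit 3.72 and 3.63, Epcam 4.59 and 4.25, Pecam1 5.44 and 5.07, and Cd24a 6.60 and 7.27, none past the threshold. Cd24a, at -0.67 (adjusted p = 0.0515), passed without old replicate 4 (-0.84) or young replicate 1 (-0.82). It also passed after median centring (adjusted p = 0.0311) or quantile normalization (0.026), without the dimmest 25% of genes (0.0428), with the probe set of highest SD (0.0495), with array weights (0.00859) and with a replicate block (0.00643). Of 10 fibroblast markers 1 fell, Col3a1 at -0.28, and the brightest was Dcn. The mean list level was 11.08 to 11.16 in old arrays and 11.20 to 11.33 in young arrays, without overlap. At an unadjusted p under 0.05, 4 of the 10 were lower and 0 higher. Beside the marker counts here and below, 9.87% of all genes rose and 7.66% fell. Keratinocyte markers had 3 genes higher and 2 lower of 10, with a mean list level from 7.86 to 8.96 in old arrays and from 7.20 to 8.46 in young arrays. Krt14 rose by 1.65, and the brightest, Krt5, by 1.04, a call lost when any of 6 arrays was left out. The 2 that fell were Trp63, at -0.41, and Lor, at -0.60. The keratinocyte list was highest in old replicate 4. Among old arrays that one also had the lowest B4galt7, Chst12 and Sulf2 and the highest Ugdh and Hs6st1, which are named for that reason. Of the other called members none had its old value farthest from the young arrays there. In old replicate 1, where the list was lowest among old arrays (7.86), Xylt2, B3gat3, Chpf2 and Papss2 were lowest and Chsy1 highest. The list was 8.46 in young replicate 3, within the old range. A link between the list and the called members was not tested.

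Endothelial markers had 3 genes higher of 8 (list level 5.09 to 5.41 in old, 4.84 to 5.01 in young). These were Tek at 1.73, Flt1 at 0.62 and Tie1 at 0.35 (adjusted p = 0.00111, 8.3e-04 and 0.0379). The brightest, Kdr, at 0.14, did not pass (adjusted p = 0.869). Pericyte and smooth muscle markers had 1 higher of 6 (6.53 to 7.01 in old, 6.10 to 6.30 in young), the brightest, Kcnj8, at 0.64, a call lost without any array but young replicate 1. Macrophage and dendritic markers had 1 higher and 1 lower of 11 (5.10 to 5.17 in old, 5.14 to 5.23 in young). Csf1r, the brightest of them, was the lower one, at -1.92, and Lyz2 the higher one, at 1.08. Adipocyte markers had 1 higher of 6, Adipor2 at 0.23, T cell and mast cell markers none of 8 (Cma1 at 0.04, Cd3e at 0.19; 1 at an unadjusted p under 0.05, and none lower), and melanocyte and Schwann markers 1 lower of 6, Mlana at -0.57 (Sox10 at -0.06). The calls of Adipor2 and Mlana were each lost without any 1 of 5 arrays. The part of other cells in the enzyme changes was not tested. Control probe sets for RNA quality gave a 3′ minus 5′ signal for Gapdh of -0.30 to 0.02 in old and -0.28 to -0.23 in young arrays (exact p = 0.314), and for beta-actin of -0.22 to -0.17 and -0.27 to -0.20 (exact p = 0.0857).

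Non-specific background also differed with age and touches every call above. The mean of 9 control probe sets rich in G and C was 5.38 to 5.98 in old arrays and 6.13 to 6.41 in young arrays, a difference of -0.57 (exact permutation p = 0.0286, the smallest possible). With this index as a covariate all 13 called members kept their direction, and 1, Chpf, kept its call (-1.30, adjusted p = 0.013). Standard errors were about 1.99 times as large in that fit, because the index and age overlap (r = -0.86 over the 8 arrays, as a description), and 67 genes rose and 98 fell in the whole table. Papss2 was at -0.62 (adjusted p = 0.0709), Papss1 at -0.40, Chst12 at -0.47, B4galt7 at -0.48 and Ugdh at 0.53 with the covariate (adjusted p from 0.207 to 0.49). The differences of Chpf2 (-0.16), Xylt2 (-0.22) and Hs6st1 (0.18) became smaller by over 1.5 times, and that of B3galt6 (-0.88) larger by as much. Of the genes named around the chain enzymes, Col14a1 became smaller by over 1.5 times (-1.76), and none kept its call. Background and age cannot be told apart in these arrays.

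**Figure D4:**
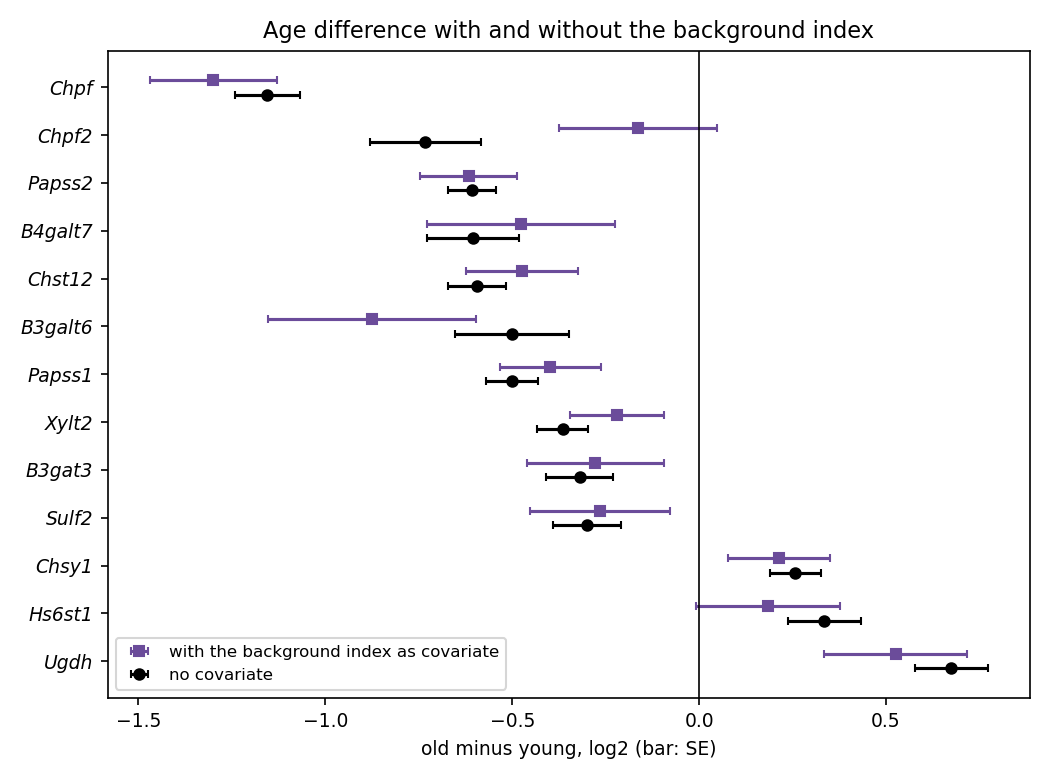
Age difference of the 13 called enzymes without (circles) and with (squares) the non-specific background index as a covariate (x axis, old minus young on the log2 scale; bars, SE). All 13 keep their side of 0, Chpf stays beyond -1, and Chpf2 is at -0.16 with the covariate and -0.73 without it.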

How the data were processed

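Sorted dermal fibroblasts of 4 old and 4 young mice were profiled on 1 array each, and groups follow the sample titles. What the authors deposited is 1 log2 value per probe set and array, made with RMA and the R package affy, per the submitters' processing notes (versions not stated), which corrects background and quantile-normalizes arrays. The table held 45141 probe sets, of which 28898 had 1 gene symbol in the platform annotation, 551 several and 15692 none. Array medians lay between 5.19 and 5.34, and the number of arrays limits precision. Array replicates correlated at 0.992 to 0.997 in old and 0.994 to 0.997 in young. Each of 17097 genes took its brightest probe set. For the probe annotation, a genome build was not given in the sources used here. The age contrast was fitted on this table by lmFit and eBayes of limma 3.58.1 (R 4.3.3, 2-sided, no covariate), and adjusted p-values are Benjamini-Hochberg over all genes at a threshold of 0.05. Pairs of related genes had an exact permutation test. Figures used matplotlib 3.10.9.

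The members, lists and pairs were chosen with earlier results of these data known. Values per array are given for members past the threshold and the uncalled relative of a called one. Of each pathway list up to 4 called genes with the largest change are named, and of each marker list the brightest gene and that of smallest p. Bgn, Lyz2, Trp63, Lor, Tek, Tie1 and the genes of the sort gate were named after their values were seen. On simulated data for this comparison (17097 genes, 200 changed) the test recovered 66% of changes of 0.5 and 95% of changes of 1, with 3.01% false calls. The simulated noise was independent between genes, without a background difference, and fewer genes changed than the 2998 called here. These rates therefore do not carry over to the calls above. Alternatives covered normalization, dim genes, probe set choice, variance settings, array weights, a replicate block, a background covariate and each array left out.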

Additional observations from a re-analysis of the deposited data

Results flagged for a closer look

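Among 68 groups of 4 arrays (34 members, old and young), 5 held an array far from the other 3, by the ratio of that gap to the group's range, which chance gives in about 1 of 20 groups. Chst12 was 8.48 in old replicate 4, against 8.69 to 8.70 in the other old arrays. Hs2st1 was 8.52 in old replicate 4, against 8.34 to 8.37. Ext1 was 9.31 in old replicate 3, against 9.42 to 9.43. Dse was 9.44 in young replicate 1, against 9.18 to 9.21 in the other young arrays, and Glce was 8.79 there, against 8.96 to 8.98. The call of Chst12 was kept without old replicate 4 (adjusted p up to 0.00317 over the arrays left out), and the other 4 genes were not called.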

How the results depend on the processing

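Under 17 alternatives no called member changed sign, Chpf alone kept its call under all of them, and 8 of the 13 called members (Xylt2, B4galt7, Chpf, Chpf2, Chst12, Papss1, Papss2 and Ugdh) kept it under all but the background covariate. With that covariate 0 members rose, 1 fell and 0 linker genes fell. After a further quantile normalization 1 member rose, and 2 linker genes fell when each gene's probe sets were averaged. With 1 array left out, 1 to 4 members rose (1 without old replicate 1 or 4 or young replicate 2 or 3), 7 to 10 fell, and 2 to 4 linker genes fell (2 without old replicate 1, 3 or 4 or young replicate 2, 3 or 4). Fitted with a replicate block, 5 members rose, Chst7 (0.39, adjusted p = 0.0072) and Sulf1 (0.38, adjusted p = 0.0261) being added, and Sulf2 was lost (adjusted p = 0.0553). Same-numbered animals deviated together by correlations of 0.29, 0.05, -0.04 and 0.22. The best-correlated young animal had the same number for old animals 1 and 4, and not for 2 and 3. The numbers are therefore not shown to pair them. Of the members, 8 uncalled ones changed sign in some alternative. Among pairs, Hs6st1 with Hs6st2 no longer reached the smallest p with other probe set choices (0.35 to 0.37, exact p = 0.0857), nor did Chst3 with Chst7 after quantile normalization (-0.29, exact p = 0.0857). The causes were not tested. Differences of dim members and of those near the top of the range may be compressed, which was not measured here.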
